A study of Caenorhabditis elegans with 6 samples.

Results

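The subunit genes of Mediator and of the general transcription factor TFIID were examined for open chromatin in Caenorhabditis elegans. Members were the protein-coding genes of the assembly WBcel235 whose symbol starts with mdt or taf followed by a number, and the rule found 37 of the 19971 nuclear protein-coding genes: 20 mdt genes and 17 taf genes. Mediator genes that carry other symbols, such as dpy-22, are not members and are given as a comparison. A peak was assigned to a gene if one of the gene's ends was the gene end nearest to the peak's summit, or lay within 1000 bp of the summit. The gene table used has no strand, so an end can be the 5′ or the 3′ end of the gene.

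TFIID is built from the TATA-binding protein and its associated factors, the TAFs, and binds the core promoter as the first step in assembling RNA polymerase II there. Many TAFs pair through histone folds. Mediator is a large complex that connects transcription factors bound at enhancers and promoters with RNA polymerase II, and its subunits are grouped into a head, a middle, a tail and a detachable kinase module. Both complexes are used in all cell types, neurons included.

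ATAC-seq, in which the Tn5 transposase tags accessible DNA, was carried out on nuclei of mixed-stage, mostly larval worms of the strain OH11061. All samples carry the transgene otIs381, which puts GFP into neuronal nuclei under a ric-19 promoter. The neuronal group (3 samples) was sorted for GFP and the DNA stain DAPI, and the total group (3 samples) for DAPI alone, so total nuclei include neuronal ones; each sample held 50000 nuclei. The data are 1 list of reproducible peaks per group on build ce11, with 2313 peaks for neuronal and 2683 for total nuclei and no value per sample. There is therefore no replicate error and no test between groups, and every interval below covers counting error only. By the same rule, 5 of 10 neuronal marker genes had a peak in the neuronal list and 7 of 10 in the total list, with ric-19, whose promoter the reporter carries, highest in both. The neuronal markers rab-3, snt-1 and sng-1 had none in either list. The 16 markers of muscle, intestine, hypodermis and germline included 3 with a peak in the neuronal list, unc-54, elt-2 and glh-1. The total list held peaks of unc-54, unc-15 and elt-2. In both lists the unc-54 peak had its summit inside the neighbour aex-5, 33 bp from an end of aex-5 and 107 bp from unc-54. Reads at this summit, recovered as described below, were 36951 in the neuronal and 25483 in the total list, at percentile 99.96 of each. The peak therefore cannot be credited to unc-54 alone, and its source was not tested. None of the 4 hypodermis markers had a peak in either list (exact binomial 95% interval up to 60.2%).

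Open sites were found at 14 of the members. In the neuronal list 12 of 37 members did, a share of 32.4% (exact binomial 95% interval 18.01% to 49.8%), beside 14.7% of all protein-coding genes. In the total list the count was 14 of 37, or 37.8% (22.5% to 55.2%), beside 17.2% of all genes. The 12 members of the neuronal list were all among the 14 of the total list, and mdt-9 and mdt-27 had peaks in the total list alone. Over all protein-coding genes, 2816 had a peak in both lists, 121 in the neuronal list alone and 619 in the total list alone. By family, 6 of 20 mdt genes and 6 of 17 taf genes had a peak in the neuronal list, and 8 of 20 and 6 of 17 in the total list. Counting only genes whose end was the nearest one, the members with a peak were 7 in the neuronal and 8 in the total list (18.9% and 21.6%), beside 10.9% and 12.4% of all genes. These shares are descriptions and were not tested.

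**Figure D1:**
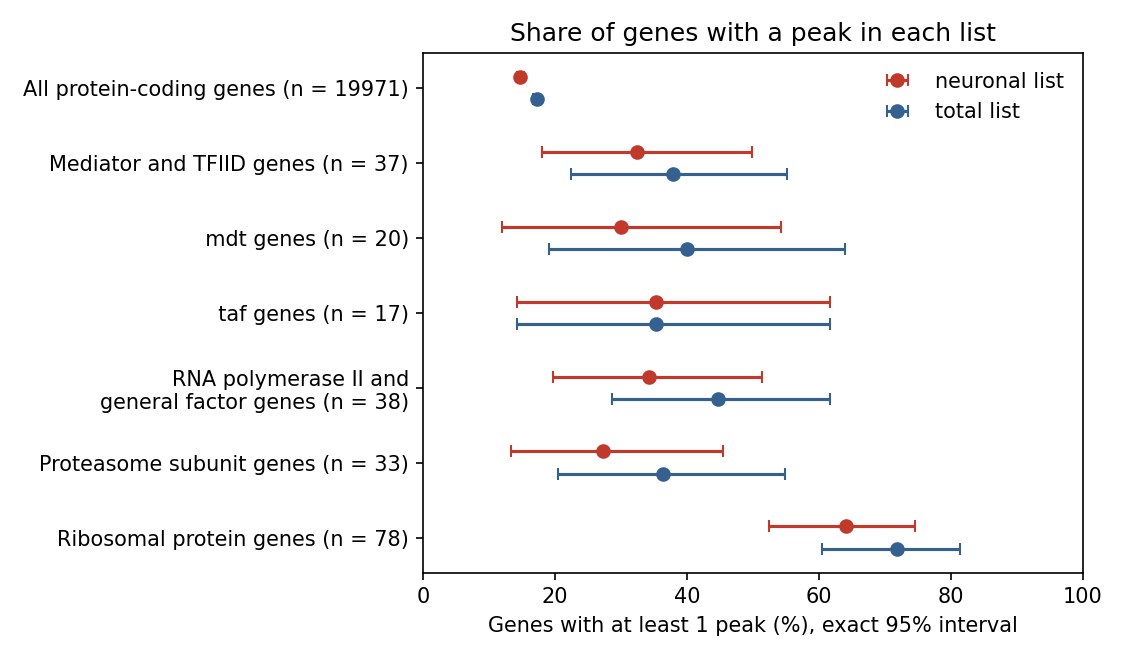
Share of genes with at least 1 peak (%, points) with exact binomial 95% intervals (bars), for the neuronal and total lists and for each gene group. Members lie at 32.4% and 37.8%, all protein-coding genes at 14.7% and 17.2%, and ribosomal protein genes highest.

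Members without a peak are most of both families. The 12 such mdt genes are mdt-8, mdt-11, mdt-18, mdt-20 and mdt-22 of the head module, mdt-10, mdt-21 and mdt-31 of the middle module, mdt-15 and mdt-29 of the tail, and mdt-28 and mdt-30. Of these mdt-15 is known in the worm as a regulator of fatty acid metabolism. The 11 taf genes without a peak are taf-1, the largest TFIID subunit, taf-2, taf-6.1, taf-6.2, taf-7.1, taf-7.2, taf-8, taf-9, taf-11.2, taf-11.3 and taf-13. Since only reproducible peaks are listed, a gene without one is not shown to be closed.

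The assignment has a sharp limit at 1000 bp, and a few members lay close to it. The members just inside it were mdt-17, with a summit 962 bp away in the neuronal list and 963 bp in the total list, and mdt-27, with a summit 990 bp away in the total list that belongs to it as the nearest gene end in any case. Just outside it lay mdt-18, with a summit inside the gene 1250 bp from its end in both lists (fold 7.55 and 8.88), and taf-11.3 (1336 bp and 1339 bp). Next came mdt-30, at 1596 bp and 1600 bp. For these 3 genes outside the limit an end of another gene was nearer to the summit.

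Member summits lay mostly outside the gene, as did summits over all pairs of a peak and a gene. Distances are bounded by the assignment rule, since only a nearest gene end can lie more than 1000 bp from a summit. The summit was a median of 483 bp from the member's end in the neuronal list (13 peaks, range 84 bp to 962 bp) and 483 bp in the total list (17 peaks, 84 bp to 3088 bp). Over all pairs of a peak and a gene the medians were 487.5 bp and 451 bp. The summit was inside the member in 2 of 13 (15.4%) and 3 of 17 cases (17.6%), close to the 17.3% and 16.6% over all pairs. These were at mdt-4 and mdt-26 in both lists and at mdt-27 in the total list. The member's own end was the nearest gene end in 8 of 13 cases (61.5%, against 73.6% over all pairs) and in 11 of 17 (64.7%, against 72.1%). In the others a neighbouring gene lay nearer. Counting every peak to which another gene was assigned too, there were 8 of 13 (61.5%) and 9 of 17 (52.9%). Over all peaks these shares were 32.4% and 34.7%. At such peaks accessibility cannot be told apart between the neighbours.

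**Figure D2:**
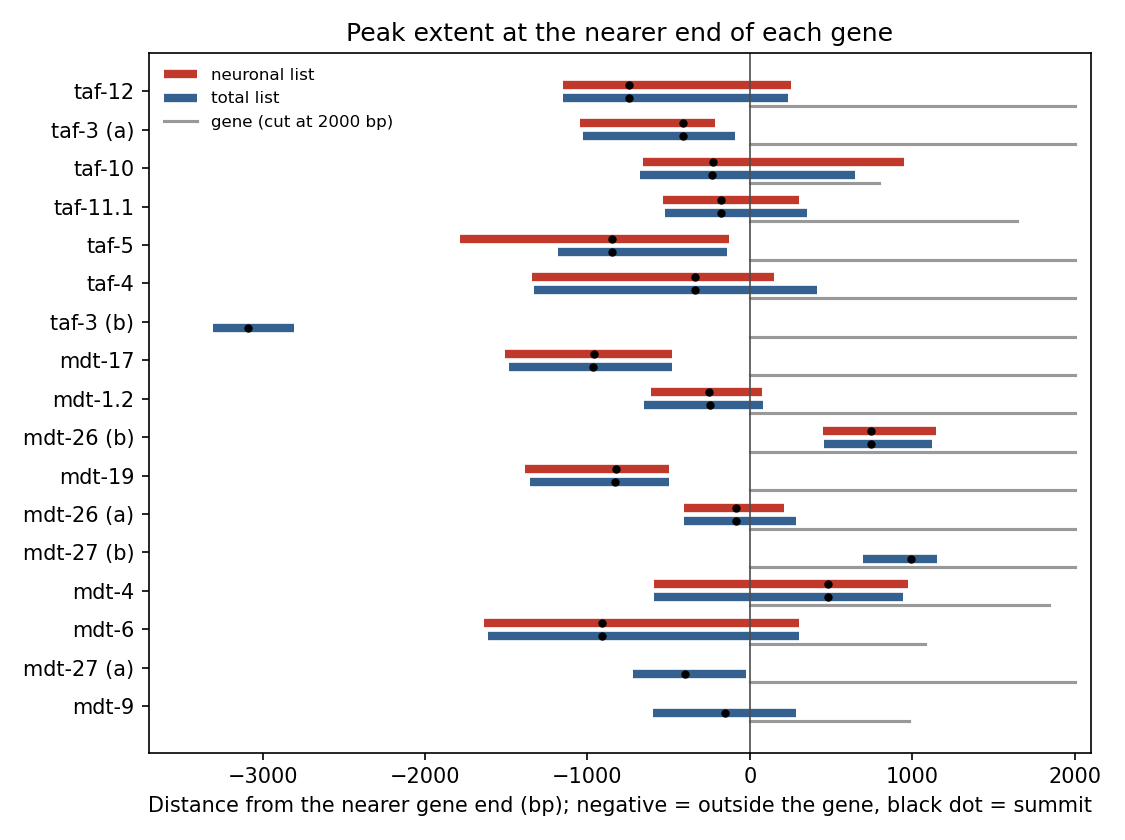
Extent of each peak (bars) and its summit (black dots) by distance in bp from the nearer end of the member gene, with negative values outside the gene. In taf-3 and mdt-27, (a) and (b) mark the 2 peaks of the total list, and in mdt-26 the 2 peaks of both lists. Most bars lie to the left of 0 or across it, and that of taf-10 in the neuronal list covers the whole gene.

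Several of the taf peaks were wide. Median width of member peaks was 1028 bp in the neuronal list (range 618 bp to 1936 bp) and 881 bp in the total list (455 bp to 1911 bp), beside 799 bp and 823 bp over all peaks. Widths of 1400 bp or more were found in 6 of 13 member peaks of the neuronal list, those of taf-4, taf-5, taf-10, taf-12, mdt-4 and mdt-6, and 11.2% of all its peaks were as wide. In the total list 3 of 17 were, those of taf-4, mdt-4 and mdt-6, beside 11.3% of all peaks. The limit of 1400 bp was chosen with widths of these lists known. At 3 of these genes the peak was under 1400 bp in the total list. At taf-5 the neuronal peak began 604 bp earlier, at taf-10 it ended 301 bp later, and at taf-12 it was 19 bp wider.

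Fold enrichment of member peaks was close to that of the lists as a whole. The authors' fold, a ratio of reads at the summit to the local background, had a median of 10.3 in the neuronal list (13 peaks, range 7.19 to 24.6) beside 10.5 over all peaks. In the total list it was 10.2 (17 peaks, 7.14 to 24.7) beside 10.7. Of the member peaks 5 of 13 and 5 of 17 lay above the median of their list. By family, the 6 taf peaks of the neuronal list had folds from 9.73 to 15.3 and the 7 mdt peaks from 7.19 to 24.6.

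**Figure D3:**
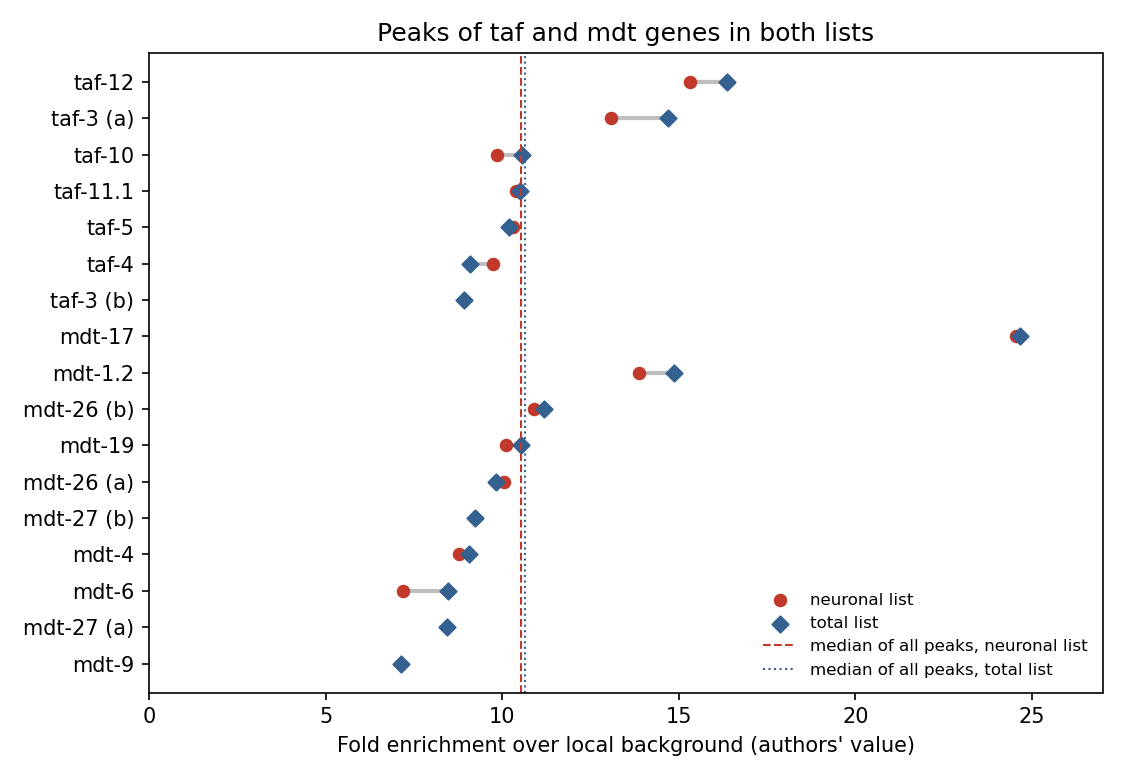
Authors' fold enrichment (x axis) of each member peak in the neuronal list (circles) and the total list (diamonds), taf genes above and mdt genes below, with the median of all peaks of each list as vertical lines. The mdt-17 peak stands apart at 24.6 and 24.7, and 4 peaks have a diamond only.

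Among the TFIID genes the highest peak was that of taf-12, a histone-fold subunit that pairs with TAF4. It ran from chr III 11869025 to 11870429 in the neuronal list, with a fold of 15.3, and from 11869045 to 11870430 in the total list, with a fold of 16.4. Its summit lay 744 bp outside the gene (CELE_Y56A3A.4, III 11862385 to 11869281) in both lists and had no other gene assigned. It ranked 291 among the neuronal and 289 among the total peaks by fold. The peak of taf-4, its partner and a core scaffold of TFIID whose worm protein is held in the cytoplasm of early embryos by OMA proteins, was lower. Its fold was 9.73 in the neuronal list (I 381484 to 382976) and 9.09 in the total list (I 381494 to 383238), with summits 337 bp and 335 bp outside the gene (CELE_R119.6). This peak also reached into the neighbour pqn-59.

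The X-linked taf-3, whose mammalian counterpart reads methylated histone tails at promoters through a PHD finger, was the one TFIID gene with 2 peaks. The first lay 412 bp outside the gene (CELE_C11G6.1) in the neuronal list, at X 16331387 to 16332218 with a fold of 13.1, and 413 bp outside it in the total list, at X 16331405 to 16332342 with a fold of 14.7. The second, 3088 bp beyond the other end, was in the total list alone (X 16348833 to 16349335), with a fold of 8.93 and a score of 716, and it was the only member peak of that list whose score was below 1000. It was assigned as the nearest gene end and lay beyond the 1000 bp window.

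The remaining TFIID genes had folds near the median of all peaks. At taf-5, the WD-repeat scaffold subunit, fold was 10.3 in the neuronal list (I 7848028 to 7849683) and 10.2 in the total list (I 7848632 to 7849673). This summit was 850 bp and 851 bp from taf-5 but 43 bp and 42 bp from F30F8.5. At taf-10, a histone-fold subunit, fold was 9.84 in the neuronal list (V 4686445 to 4688052), where the peak covered all 797 bp of the gene, and 10.6 in the total list (V 4686427 to 4687751), where it covered 81.4% of it. Of the 3 TAF11-like genes taf-11.1 alone had a peak assigned to it, at X 4254633 to 4255475 with a fold of 10.4 in the neuronal list and at X 4254648 to 4255521 with a fold of 10.5 in the total list. Its summit was 180 bp outside the gene in both, and another gene was assigned to this peak too. A peak of each list also overlapped the span of taf-11.3, with a summit outside the gene and beyond the 1000 bp limit. Neither of the paired paralogs taf-6.1 and taf-6.2 nor taf-7.1 and taf-7.2 had a peak.

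In the Mediator head module, mdt-17 had the highest fold of all members. Its peak (V 20249307 to 20250334 in the neuronal list, 20249330 to 20250334 in the total list) had folds of 24.6 and 24.7 and ranked 3 of 2313 and 4 of 2683. The summit was nearer to swsn-1, a core subunit of the SWI/SNF chromatin remodeller, at 364 bp and 363 bp, than to mdt-17 (CELE_Y113G7B.18), and the peak overlapped the span of swsn-1 and not that of mdt-17. The peak of mdt-6, another head subunit, was the widest of the members and among the weakest. Its width was 1936 bp in the neuronal list (V 7059324 to 7061259) and 1911 bp in the total list (V 7059324 to 7061234), with folds of 7.19 and 8.46, and its neuronal score of 483 was the one below 1000 among member peaks of that list. It overlapped 3 genes, mdt-6, Y57E12AL.6 and Y57E12AL.1, and its summit was nearest to Y57E12AL.6.

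Of the middle module, mdt-4, mdt-9 and the MED1-like mdt-1.2 had peaks. In mammals MED1 is the subunit that nuclear receptors contact. The mdt-1.2 peak had a fold of 13.9 in the neuronal list (X 17150915 to 17151594) and 14.9 in the total list (X 17150869 to 17151603), with summits 254 bp and 247 bp outside the gene (CELE_T23C6.1) and no other gene assigned. The mdt-4 peak had folds of 8.79 (II 4941515 to 4943081) and 9.05 (II 4941515 to 4943051). Its summit lay inside mdt-4, 483 bp from its end, but 91 bp from ZK546.19, and a snoRNA gene, ZK546.18, lay 71 bp away. At mdt-9 there was a peak in the total list alone (IV 13385785 to 13386665), with a fold of 7.14, the lowest of all member peaks there, and a summit 156 bp outside the gene and 100 bp from Y62E10A.23. In the neuronal list the nearest summit was 2344 bp from mdt-9.

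The subunit gene mdt-26, whose mammalian counterpart links Mediator to elongation factors, had 2 peaks in each list and was the one member with more than 1 peak in the neuronal list. The first peak covered the lower end of the gene (CELE_C25H3.6, II 5661181 to 5665243), at II 5660774 to 5661391 with a fold of 10.1 in the neuronal list and at II 5660774 to 5661464 with a fold of 9.82 in the total list. This first peak also overlapped the neighbour ift-43. The second lay inside mdt-26, 748 bp from its lower end, at II 5661629 to 5662328 with a fold of 10.9 and at II 5661637 to 5662301 with a fold of 11.2. Both summits were at the same base in both lists. By reads at the summit these are the deepest member sites, as given below. The peak of mdt-19 had folds of 10.1 (III 2596671 to 2597556) and 10.5 (III 2596700 to 2597557), with a summit 827 bp and 828 bp from mdt-19 but 192 bp and 191 bp from apb-1, a beta-adaptin gene.

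The tail subunit gene mdt-27 had 2 peaks in the total list and none in the neuronal list, where the nearest summit was 60129 bp away. One lay 397 bp outside the gene (CELE_T18H9.6) at V 9208744 to 9209437 with a fold of 8.44, and the other 990 bp inside it at V 9212503 to 9212957 with a fold of 9.22. With a width of 455 bp the second was the narrowest member peak. Counting genes with 2 or more peaks, there was 1 of 37 members in the neuronal list (2.70%), beside 0.931% of all genes, and there were 3 of 37 in the total list (8.11%), beside 1.3% of all genes. With equal numbers of peaks in both lists mdt-26 alone had 2 peaks in the total list.

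**Figure D4:**
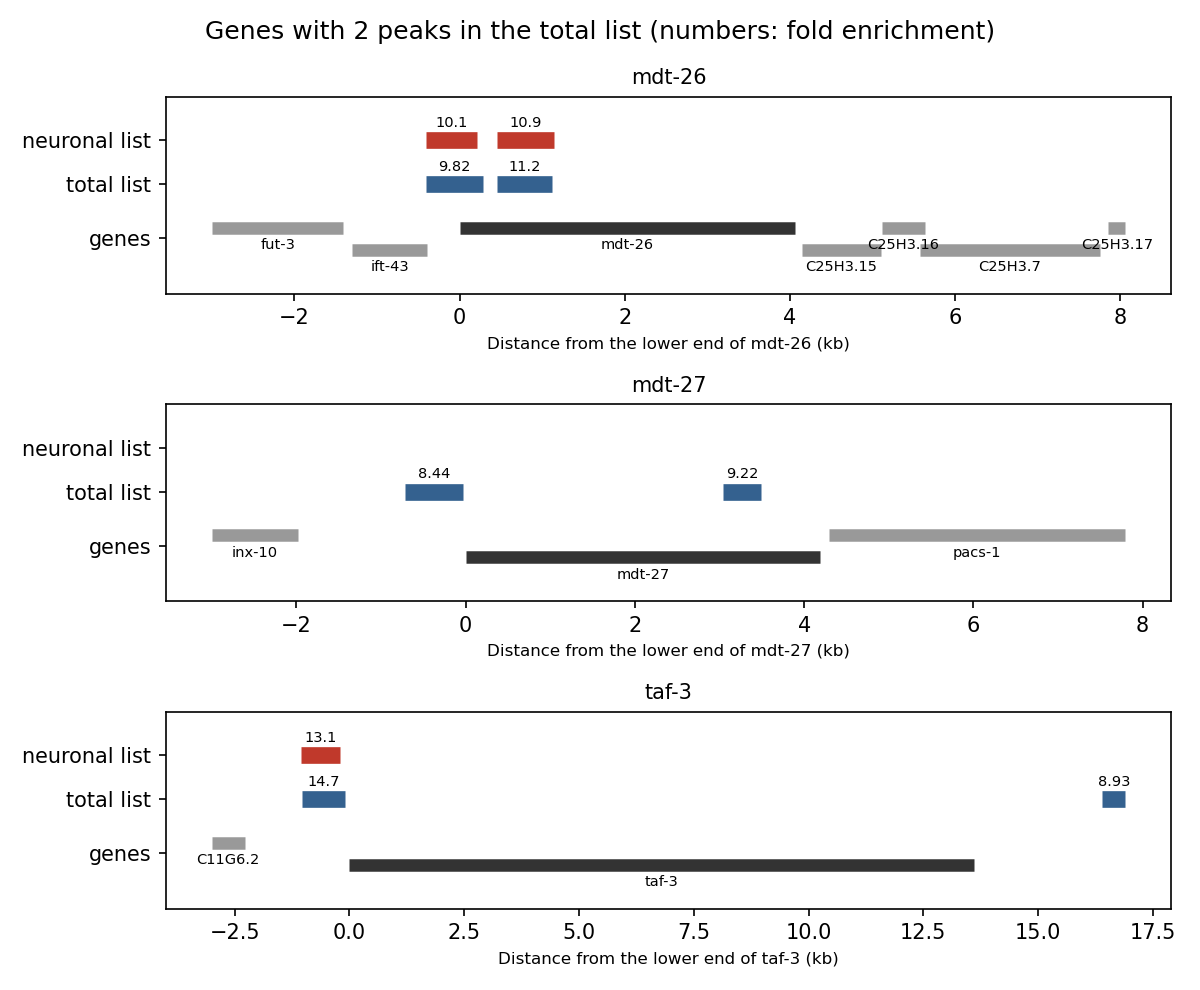
Peaks of both lists (coloured bars, with the authors' fold) and gene spans (grey bars, the member in black) at mdt-26, mdt-27 and taf-3, by distance in kb from the lower end of the member. The mdt-26 peaks are in both lists, both mdt-27 peaks and the second taf-3 peak (8.93) in the total list alone.

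Set side by side, the lists gave nearly the same sites at the members. All 13 member peaks of the neuronal list overlapped a peak of the total list by at least 1 bp, so that 0 of 13 were in the neuronal list alone, which allows a share of up to 23.1% by a limit of 3 counts (exact interval up to 24.7%), beside 4.11% of all neuronal peaks. In the total list 4 of 17 were in that list alone (23.5%, exact interval 6.81% to 49.9%), beside 17.4% of all total peaks. They are the peaks of mdt-9, mdt-27 (2) and taf-3, with folds from 7.14 to 9.22, and all 4 are below the median of 10.7. The summits of the 13 pairs coincided in 6 cases (46.2%), differed by 1 bp in 4 and by at most 7 bp in the others. Over all 2211 pairs the summits coincided in 52.3% and lay within 10 bp in 87.2%, so close summits are general to these lists.

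Ranked by fold among the 2211 sites paired one to one, 11 of the 13 member pairs (84.6%) differed by at most 10 percentile points between the lists, as did 87.5% of all pairs. The median difference, neuronal minus total, was 2.67 points for the members (range -6.29 to 15.6) and 0.0452 for all pairs, and 8 of 13 were higher in the neuronal list, as were 1109 of all 2211. The largest was at taf-4, at percentile 38.2 in the neuronal and 22.6 in the total list, followed by the first mdt-26 peak, at 41.7 and 30.6. The lowest was at mdt-6, at 9.45 and 15.7. The direction depends on the ranking. By percentile among all peaks of each list, the planned measure, the median difference was -1.81 points for members and -3.35 for all pairs. By that measure 4 of 13 member pairs and 533 of all 2211 were higher in the neuronal list. The largest difference was then at mdt-6 (-11.8), and taf-4 stood at 9.48. With 1 list per group no spread between samples is known against which to judge these differences.

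The reads behind each fold were recovered from the deposited fold and p-value, on the assumption that the peak caller's default formulas were used. At member summits the pileup ran from 1156 to 4408 reads in the neuronal list (median 1950, against 1920 over all peaks) and from 669 to 2894 in the total list (median 1227, against 1204). The highest were at the second mdt-26 peak, with 4408 reads (exact Poisson 95% interval 4279 to 4540) over a local background of 403.2 in the neuronal list, and 2894 (2790 to 3001) over 257.7 in the total list. Among backgrounds this stood at percentile 95.6 in the neuronal list and 96.01 in the total list, so that a high pileup went with a fold of 10.9 and 11.2. The mdt-17 site had fewer reads, 3391 and 2345, over backgrounds of 137.1 and 94.1, at percentiles 21.6 and 31.98 of their lists. At taf-11.1 the background was the lowest of the members, 110.3 and 69.1, with 1156 and 735 reads. These backgrounds are also the lowest over all peaks of each list, and other peaks, such as that of lin-25, share them. The fold at taf-11.1 thus rests on a minimum of the list and not on a value particular to the site. The neuronal pileup was the higher one in 13 of 13 member pairs and in all 2211 pairs. The median ratio of total to neuronal pileup was 0.692 for member pairs and 0.676 for all pairs. As the lowest background also differed between the lists, at 110.3 and 69.1, pileups are not on one scale across them. The 4 peaks in the total list alone had 669 to 921 reads there.

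**Figure D5:**
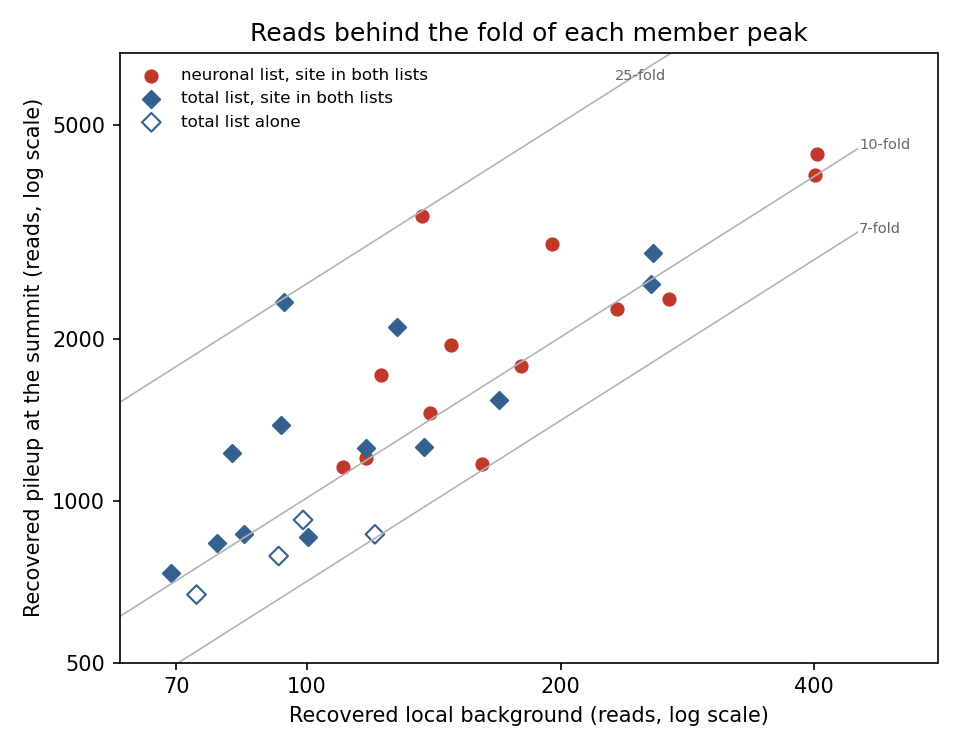
Recovered pileup at the summit against recovered local background, in reads on log scales, for member peaks of the neuronal list (circles) and the total list (diamonds, open where the site is in the total list alone). Grey lines mark equal fold; the 2 mdt-26 peaks lie at the upper right near 10-fold and the mdt-17 peaks near 25-fold.

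Members with a peak were the longer genes by median, as among all genes. Their median gene length was 3944 bp (14 genes) against 2508 bp for members without one (23 genes), while over all protein-coding genes it was 2803 bp with and 1901 bp without a peak. Another protein-coding gene lay within 1000 bp of 34 of the 37 members, or 91.9%, against 81.8% of all genes. By chromosome, members with a peak in either list were 4 of 5 on V, 3 of 4 on X, 2 of 6 on I, 2 of 8 on II, 2 of 10 on III and 1 of 4 on IV. Over all genes the share was lowest on V (11.3%) and highest on III (23.3%), with 21.5% on X, 23.1% on I, 15.7% on II and 17.9% on IV. With so few members per chromosome these counts were not tested.

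Genes that work with TFIID and Mediator were also found among those with peaks. Of 38 genes for RNA polymerase II subunits, general initiation factors and further Mediator subunits, 13 had a peak in the neuronal list (34.2%, exact interval 19.6% to 51.4%) and 17 in the total list (44.7%, 28.6% to 61.7%). Proteasome subunit genes stood at 9 and 12 of 33 (27.3% and 36.4%), and cytosolic ribosomal protein genes at 50 and 56 of 78 (64.1% and 71.8%). The highest in the total list was dpy-22, the worm MED12 of the kinase module, with a fold of 18.9 in the neuronal and 20.4 in the total list and a summit 491 bp outside the gene. It was followed by pqn-51, a TFIIA subunit gene (14.9 and 15.3), lin-25, the MED24-like gene that acts in vulval induction (11.7 and 14.4), and rpb-11 (11.3 and 11.9), whose summit was 9503 bp away. A second rpb-11 peak, 10845 bp away, was in the total list alone (fold 6.41). The pqn-51 summit lay inside both pqn-51 and K11D12.14. It was nearer to an end of K11D12.14 (13 bp and 14 bp) than to one of pqn-51 (42 bp and 43 bp). The dpy-22 and lin-25 peaks had another gene assigned too, so these peaks cannot be credited to the named genes alone. The 4 genes of this list with peaks in the total list alone, named after their values were seen, were the kinase module genes cdk-8 and cic-1, the polymerase gene rpb-8 and tlf-1, which shares its peak with cdk-8. Their folds were from 6.98 to 10.2. Over all protein-coding genes, 619 of the 3435 with a peak in the total list had it in that list alone.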

How the data were processed

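The submitters' processing notes name MACS2, Picard, Bowtie2 2.2.6, cutadapt 1.9.1, SAMtools 1.7, bedtools 2.26 and the build ce11. Their roles, any Tn5 shift, how samples were combined and the depth of each are not stated in any source used. Per the authors' file names the 2 deposited lists were cut at an IDR (irreproducible discovery rate) of 0.1. The deposited fold is a ratio to local background, the deposited −log10 p-value comes from the peak caller, and the deposited score is a scaled IDR value.

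Gene positions are RefSeq WBcel235, the same sequence as ce11. Pileups were recovered by solving the caller's default fold and Poisson formulas, and 99.8% of neuronal and 99.9% of total peaks came out whole within 0.02. The code for assignment was checked with summits planted near members, and that for recovery with values made by the same formulas. These checks cannot show whether the rule or the formulas suit the data. Python 3.11.15, numpy 2.4.6, scipy 1.17.1, pandas 2.3.3 and matplotlib 3.10.9 were used. Intervals of shares are exact binomial. Order-statistic intervals of medians were used only to count which results moved under other settings, and the text gives ranges. All members with a peak are named. Of the comparison genes, the plan named the 4 of highest total fold and those with 2 or more peaks. Those with peaks in the total list alone were added after their values were seen. Members and lists were chosen with earlier results of these data known. Of 40 comparison symbols, 38 matched. Sequence was not analysed here, and motif counts were not made.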

Additional observations from a re-analysis of the deposited data

How the results depend on the processing

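No paired analysis was possible because the lists hold no value per sample, and leaving out each replicate was not run for the same reason. Of 148 results under 11 alternatives, 124 stayed within the interval of the value given, or within 1.5 times of a count, and 24 moved. The cause was not tested beyond the peaks or genes each setting leaves out. Some could hardly move: equal numbers of peaks left the shorter neuronal list as it was, and a fold of at least 2 left all member values unchanged. Others stayed because intervals are wide, such as the members' neuronal share with the nearest gene end alone, 18.9% (7 of 37) against 32.4% (12 of 37). The tally is therefore not a measure of robustness. With the nearest gene end alone the members' share in the total list was 21.6% (8 of 37), and all genes stood at 10.9% in the neuronal and 12.4% in the total list. With ends within 1000 bp all genes stood at 11.4% and 13.6%. Within 500 bp the members' shares were 18.9% and 24.3%, no member had 2 peaks (0 and 0), and all genes stood at 7.88% and 9.69%. With 2000 bp the members' shares were 43.2% (16 of 37) and 51.4% (19 of 37), and all genes stood at 18.2% and 21.2%. With the stronger 50% of each list the members' share was 18.9% in both lists, members with 2 peaks in the total list were 1, their median fold there was 12.9, the comparison genes stood at 13.2% and 15.8%, and all genes at 7.12% and 8.37%. With equal numbers of peaks members with 2 peaks in the total list were 1 and all genes stood at 14.9% there. The last settings were chosen after seeing the data: with scores of 1000 alone all genes stood at 13.2% and 15.5%, and with summits inside a gene or within 1000 bp of its end at 12.8% and 15.1%. Depth limits what a missing peak shows.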
